A study of Mus musculus with 8 samples.

Results

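A set of 41 genes of the cell cycle and of DNA replication were followed in liver RNA of *Agpat3* WT and *Agpat3* KO mice. These were listed by name as cyclins, cyclin-dependent kinases and their inhibitors, transcription factors, enzymes of nucleotide supply, proteins of the replication fork and proteins of mitosis. All 41 had at least 1 probe, among 22907 genes that the arrays covered with a named probe, and where a gene had more than 1 probe the brightest was taken. The mice were C57BL/6 males of 10 weeks, 4 *Agpat3* WT and 4 *Agpat3* KO, where KO means that the gene was deleted in the whole body, and how the targeted allele was made is not given in the sources used here. RNA of each liver was hybridized to 1 one-color Agilent array, and all 8 arrays lay on 1 slide, WT in row 1 and KO in row 2, which means that slide row and genotype cannot be told apart. Levels below are log2 signals after subtraction of each array's 75th percentile (in log2), and differences are KO minus WT. Arrays hold no sequencing depth, and their number limits the precision. The targeted gene matched the labels, since the brighter *Agpat3* probe read between 5.65 and 5.88 in WT and between -0.58 and 0.02 in KO liver. The 7 hepatocyte markers examined, among them *Alb*, were well above background on all 8 arrays.

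A cell enters the cycle when D-type cyclins with CDK4 or CDK6 inactivate the retinoblastoma protein, which frees E2F factors to induce genes for DNA synthesis. Genes for mitosis are held down in resting cells by the DREAM complex and come on later, when its MuvB core binds B-MYB and FOXM1 instead. In adult liver most hepatocytes rest outside the cycle, many of them polyploid, and return to it after injury or loss of tissue, so that transcripts of mitosis in whole liver come from few cells, which may be hepatocytes or cells between them. In RNA of a whole organ, fewer cells of a type and less RNA per cell cannot be told apart.

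Promoters of these genes are shown because genes of DNA synthesis and of mitosis, which peaked in different mice, are known to be controlled through different promoter elements. RefSeq promoter windows of GRCm38.p6, from 250 bases before to 50 bases after a start site, were found for 34 of the 41 genes, in 41 windows. They were searched on both strands for an E2F motif (TTTCCCGC, TTTGGCGC, TTTCGCGC or TTTGCCGC), for the cell cycle homology region or CHR (TTTGAA), which the DREAM complex binds, and for the CCAAT box (CCAAT), which NF-Y binds. Of the 14 genes of mitosis, A- and B-type cyclins and proliferation markers, 12 had a window, and 9 of these 12 windows held a CHR (against 17.9% of 32851 windows of all genes) and 11 held a CCAAT box (91.7%, against 37.4%). An E2F motif was found in 0 of these 12 windows, against 2.26% of all windows. The 0 depends on the grouping. *Cdk1*, which was listed with the kinases and not in this set, held 1 E2F motif, 2 CHR matches and 3 CCAAT boxes. Of the 11 genes of nucleotide supply and the replication fork, all had a window, 15 windows in total. An E2F motif was found in 3 of the 15 (20.0%), a CHR in 1 (6.67%) and a CCAAT box in 7 (46.7%). A match is a description of the letters and not a bound site, and an absent match says only that the letters are not in that window. These shares were not tested. The first 3 windows below belong to genes of DNA synthesis that stood highest in KO liver relative to their error, at chrX:93632106-93632405 (minus strand), chr10:128014965-128015264 (plus strand) and chr16:23127681-23127980 (minus strand). The last 3 belong to genes of mitosis, at chr9:70421505-70421804, chr4:118437294-118437593 and chr11:99024140-99024439 (all minus strand). Each is written 5′ to 3′ on the strand of its gene, and capitals mark the matches to the motifs, none of which overlap.
Pola1: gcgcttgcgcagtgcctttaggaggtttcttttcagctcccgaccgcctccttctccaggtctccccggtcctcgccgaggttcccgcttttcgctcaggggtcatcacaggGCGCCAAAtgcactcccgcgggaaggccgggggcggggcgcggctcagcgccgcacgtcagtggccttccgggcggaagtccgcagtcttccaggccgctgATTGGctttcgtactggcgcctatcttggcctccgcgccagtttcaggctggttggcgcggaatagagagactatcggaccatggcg
Prim1: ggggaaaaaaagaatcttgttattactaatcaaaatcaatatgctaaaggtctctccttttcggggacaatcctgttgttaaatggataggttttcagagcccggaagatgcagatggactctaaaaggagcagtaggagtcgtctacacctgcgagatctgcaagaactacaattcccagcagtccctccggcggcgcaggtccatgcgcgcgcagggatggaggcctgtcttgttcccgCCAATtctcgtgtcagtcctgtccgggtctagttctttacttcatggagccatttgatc
Rfc4: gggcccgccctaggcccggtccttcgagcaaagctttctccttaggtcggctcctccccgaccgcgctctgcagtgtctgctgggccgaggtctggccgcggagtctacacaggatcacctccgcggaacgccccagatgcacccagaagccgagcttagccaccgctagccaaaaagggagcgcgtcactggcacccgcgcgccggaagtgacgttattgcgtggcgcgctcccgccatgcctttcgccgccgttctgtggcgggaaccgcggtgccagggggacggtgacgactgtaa
Ccnb2: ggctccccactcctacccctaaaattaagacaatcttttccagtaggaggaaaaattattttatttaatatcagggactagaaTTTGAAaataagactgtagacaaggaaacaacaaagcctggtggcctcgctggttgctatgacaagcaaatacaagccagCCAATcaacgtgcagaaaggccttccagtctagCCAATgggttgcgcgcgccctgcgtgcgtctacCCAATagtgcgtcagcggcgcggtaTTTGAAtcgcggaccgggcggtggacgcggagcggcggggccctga
Cdc20: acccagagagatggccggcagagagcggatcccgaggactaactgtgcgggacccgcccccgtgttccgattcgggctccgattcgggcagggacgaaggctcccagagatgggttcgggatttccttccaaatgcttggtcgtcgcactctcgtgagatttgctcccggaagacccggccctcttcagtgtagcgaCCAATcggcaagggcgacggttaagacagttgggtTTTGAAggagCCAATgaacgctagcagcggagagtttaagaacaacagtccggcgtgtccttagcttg
Top2a: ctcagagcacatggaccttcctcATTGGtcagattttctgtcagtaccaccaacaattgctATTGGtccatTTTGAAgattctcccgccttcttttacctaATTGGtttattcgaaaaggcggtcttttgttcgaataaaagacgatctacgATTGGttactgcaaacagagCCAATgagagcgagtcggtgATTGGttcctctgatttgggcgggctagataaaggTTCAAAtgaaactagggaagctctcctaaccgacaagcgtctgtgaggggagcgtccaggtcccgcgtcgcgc
*Pola1* held 1 E2F motif and 1 CCAAT box, *Prim1* 1 CCAAT box and *Rfc4* none of the motifs. *Ccnb2* held 3 CCAAT boxes and 2 CHR matches, *Cdc20* 2 and 1, and *Top2a* 6 and 2.

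The comparison of genotypes asked whether loss of *Agpat3*, an acyltransferase that puts docosahexaenoic acid into phospholipids, changed transcripts of the cell cycle in the liver. Of the 41 genes, 33 entered the test because their probe was well above background in every mouse of a genotype, and each of these was above background on all 8 arrays. A call needed more than a 1.5-fold change together with a Benjamini-Hochberg adjusted p below 0.2 in limma. Calls were 0 of 33 higher and 0 of 33 lower, where 1.01% of the 14062 genes tested were called higher and 0.754% lower (0.939% and 0.726% of all 29067 probes). With the fold change left aside, *Prim1* and *Rfc4* were below that adjusted p and higher and 0 genes lower, against 1.97% and 2.36% of all genes. At an unadjusted p under 0.05, 7 of the 33 genes were higher in KO liver, *Ccnd1*, *Ccnd2*, *Wee1*, *Rrm1*, *Pola1*, *Prim1* and *Rfc4*, against 5.7% of all genes tested. In the other direction it was 1 of 33, *Cdkn1b*, against 8.26%. For 27 of the 33 the fitted difference was above 0, against 42.0% of all genes tested (58.0% were below 0), and the median difference was 0.20, against -0.03 over all genes. That median was 0.10 without KO replicate 2 and 0.12 without WT replicate 1. The groups did not overlap for 2 genes, *Prim1* and *Rfc4*, both higher in KO liver, against 3.84% of all genes separated upward and 5.89% downward.

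**Figure D1:**
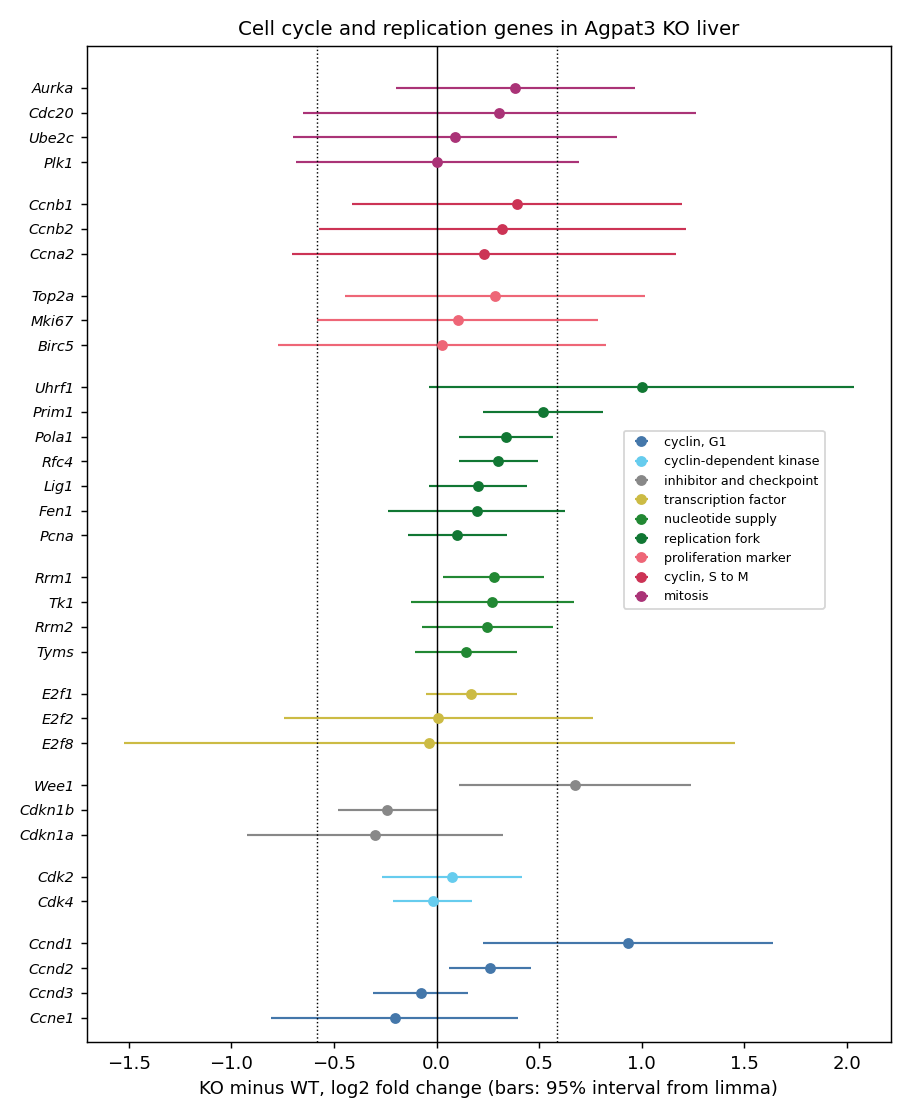
Fitted log2 fold change (KO minus WT, x axis) of the 33 genes tested, grouped by role, with 95% intervals from limma and dotted lines at a 1.5-fold change. The 11 genes of nucleotide supply and the replication fork all lie above 0, and the intervals of the mitotic genes all span 0.

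Both genes whose genotypes were separated belong to the replication fork. *Prim1* encodes the small subunit of primase, which makes the RNA primers of DNA synthesis. Its log2 signals were 0.09, -0.07, 0.09 and 0.19 in WT and 0.67, 0.38, 0.92 and 0.42 in KO liver. All KO mice lay above all WT mice, as for 3.84% of all genes tested. Any gene so separated has p = 0.0286 in the exact permutation test (70 assignments, two-sided), the smallest that 4 against 4 allow. That p therefore only restates the separation. The log2 fold change was 0.52 (SE, the standard error, 0.13, limma adjusted p = 0.144), which is 1.43-fold and under the fold change required for a call. *Rfc4*, a subunit of the clamp loader that places PCNA on DNA, had log2 signals of 0.84, 0.85, 0.74 and 0.90 in WT and 0.97, 1.18, 1.28 and 1.0997 in KO mice. The groups did not overlap here either, with a log2 fold change of 0.30 (SE 0.08, limma adjusted p = 0.187), or 1.23-fold. The adjusted p of *Rfc4* lay between 0.0889 and 0.437 over all alternatives and was over 0.2 under median normalization, with a replicate block and without a filter. It was also over 0.2 for the mean of its probes. With 1 array left out it stayed under 0.2 only without WT replicate 4 (limma adjusted p = 0.185) or KO replicate 1 (limma adjusted p = 0.181). *Prim1* was called without KO replicate 2, with 0.59 (limma adjusted p = 0.186), and its adjusted p lay between 0.118 and 0.342 over all alternatives. It was over 0.2 without a filter and without WT replicate 1, WT replicate 2, WT replicate 3 or KO replicate 1 (limma adjusted p from 0.239 to 0.298 for these 4 arrays). The dimmer *Rfc4* probe gave 0.29 (limma adjusted p = 0.295).

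*Pola1*, the catalytic subunit of the polymerase that works with primase, had log2 signals of -1.28, -1.11, -1.21 and -0.95 in WT and -0.70, -0.84, -0.67 and -0.97 in KO mice. Only WT replicate 4 reached into the range of the KO mice, and the log2 fold change was 0.34 (SE 0.10, limma adjusted p = 0.204), with 0.17 at its other probe. *Pcna*, the sliding clamp itself, had 3.30, 3.43, 3.36 and 3.49 in WT and 3.28, 3.49, 3.75 and 3.45 in KO mice, with a log2 fold change of 0.10 (95% interval -0.14 to 0.34). KO replicate 3 lay above all WT mice and KO replicate 2 just above them. KO replicate 1 lay just below all WT mice and KO replicate 4 among them. *Lig1*, which joins the fragments of the lagging strand, had a log2 fold change of 0.20, and *Fen1*, which trims their flaps, 0.19, and neither passed the test (limma adjusted p = 0.453 and 0.712). *Uhrf1*, which guides maintenance methylation at the fork, had the highest fitted log2 fold change of the 33, 1.00, but with a SE of 0.45 (limma adjusted p = 0.393). Its signal lay between -3.53 and -1.9997 in WT and between -2.39 and -0.56 in KO mice, with KO replicates 1 and 4 inside the range of the WT mice.

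Among the enzymes of nucleotide supply, *Rrm1*, the large subunit of ribonucleotide reductase, had log2 signals of -0.33, -0.14, -0.29 and -0.10 in WT and 0.11, -0.03, 0.30 and -0.13 in KO mice. KO replicate 4 lay among the WT mice, and the log2 fold change was 0.28 (SE 0.11, limma adjusted p = 0.319). *Rrm2*, the small subunit, had 0.25, *Tk1*, which salvages thymidine, 0.27, and *Tyms*, which makes thymidylate, 0.14, with limma adjusted p between 0.502 and 0.628. *Tk1* had log2 signals of 2.26, 3.01, 2.81 and 2.76 in WT and 2.66, 3.07, 3.15 and 3.06 in KO mice, so that WT replicates 2, 3 and 4 lay in the range of the KO mice, and its log2 fold change was 0.12 without WT replicate 1. All 11 genes of nucleotide supply and the fork had a fitted difference above 0, with a median of 0.27, and this count was 11 of 11 with any 1 array left out and under each other setting of the processing. The sizes moved, and without KO replicate 3 *Pcna* was at 0.02, *Fen1* at 0.03, *Tyms* at 0.06 and *Uhrf1* at 0.66.

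The entry of G1 is set by the D-type cyclins. *Ccnd1* had log2 signals of 2.01, 2.46, 2.07 and 3.23 in WT and 3.12, 3.41, 3.99 and 2.98 in KO mice. WT replicate 4 lay inside the range of the KO mice, while the other WT mice lay below it. The log2 fold change was 0.93 (SE 0.31, limma adjusted p = 0.255), or 1.91-fold, and the exact permutation test gave p = 0.0857. *Ccnd1* was called without WT replicate 4, with a log2 fold change of 1.19 (limma adjusted p = 0.120), and under normexp background correction, with 0.89 (limma adjusted p = 0.196), while its adjusted p lay between 0.120 and 0.518 over all alternatives. *Ccnd2* had log2 signals of 2.76, 2.76, 2.85 and 2.62 in WT and 3.12, 3.00, 3.09 and 2.83 in KO mice, a log2 fold change of 0.26 (SE 0.09, limma adjusted p = 0.261). WT replicate 3 lay just above KO replicate 4, and the other WT mice lay below all KO mice. The 2 other *Ccnd2* probes gave 0.50 and 0.21. *Ccnd3* had 3.80, 3.88, 3.87 and 3.78 in WT and 3.67, 3.79, 4.01 and 3.56 in KO mice, the WT values inside the range of the KO values, with a log2 fold change of -0.08 (95% interval -0.31 to 0.15). *Ccne1*, the E-type cyclin that acts at the start of S phase, had -0.20 (95% interval -0.81 to 0.40).

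Their kinases gave small differences. *Cdk4*, the partner of the D-type cyclins, had log2 signals of 3.62, 3.77, 3.53 and 3.59 in WT and 3.68, 3.62, 3.69 and 3.45 in KO mice, with a log2 fold change of -0.02 (95% interval -0.21 to 0.17), and its 2 other probes gave 0.00 and 0.05. *Cdk2*, the partner of cyclins E and A, had 0.08 (95% interval -0.26 to 0.42). In contrast to *Ccnd1*, both intervals lie within a 1.5-fold change in either direction.

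Of the inhibitors, *Cdkn1b* (p27) had log2 signals of 2.05, 2.32, 2.49 and 2.32 in WT and 2.00, 1.94, 2.18 and 2.10 in KO mice. WT replicate 1 lay among the KO mice and the other WT mice lay above them, with a log2 fold change of -0.24 (SE 0.10, limma adjusted p = 0.376). *Cdkn1a* (p21), an inhibitor that p53 induces, lay between -2.52 and -1.40 in WT and between -2.54 and -1.76 in KO mice, with a log2 fold change of -0.30 (95% interval -0.92 to 0.32). *Wee1*, the kinase that holds CDK1 inactive before mitosis, had log2 signals of -1.80, -0.97, -0.89 and -0.69 in WT and -0.57, -0.34, -0.05 and -0.71 in KO mice. KO replicate 4 lay just below WT replicate 4, so that the groups overlapped there, and WT replicate 1 lay well below the other WT mice. The log2 fold change was 0.67 (SE 0.25, limma adjusted p = 0.295), or 1.59-fold, and without WT replicate 1 it was 0.44, or 1.35-fold. *Wee1* is also a known target of the circadian clock in liver. Of 17 clock genes tested, 0 were called by limma, against 1.01% of all genes higher and 0.754% lower. At an unadjusted p under 0.05 it was also 0 of 17, against 5.7% and 8.26%. Their fitted differences ran from -0.57 to 0.70, the highest for *Per3*. Whether the clock has a part in the *Wee1* difference was not tested. Of 19 targets of p53 tested, 0 were called by limma. At an unadjusted p under 0.05, 2 of the 19 were higher (*Perp* and *Fas*) and 1 lower (*Phlda3*), against 5.7% and 8.26% of all genes. The difference from these shares was not tested.

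**Figure D2:**
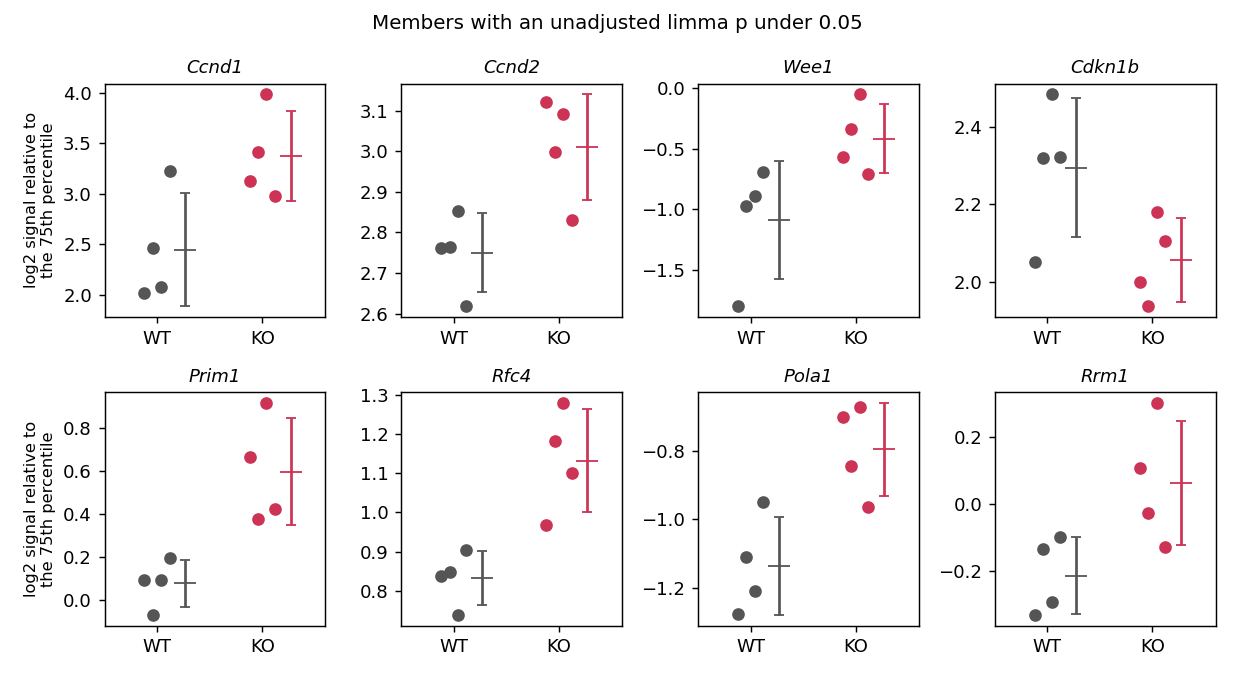
Log2 signal of each mouse (points, y axis, log2 75th percentile subtracted) for the 8 genes with an unadjusted limma p under 0.05, with the mean and SD of 4 mice beside the points. The genotypes are separated for Prim1 and Rfc4, and WT replicate 4 lies among the KO mice for Ccnd1.

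None of the E2F factors tested passed the test, and for *E2f2* and *E2f8* the SD within a genotype exceeded the difference between genotypes. *E2f1*, an activator of S phase genes, lay between -0.69 and -0.30 in WT and between -0.43 and -0.26 in KO mice, with a log2 fold change of 0.17 (limma adjusted p = 0.508). *E2f2*, another activator, had 0.30, 1.02, 1.03 and 0.22 in WT and 0.77, -0.05, 1.44 and 0.45 in KO mice, with a log2 fold change of 0.01 (95% interval -0.74 to 0.76). *E2f8*, an atypical member that represses E2F targets and is known in liver for its part in polyploidy, had log2 signals of 1.78, -0.26, -1.05 and -0.41 in WT and 1.03, 0.26, -0.22 and -1.15 in KO mice. Replicate 1 was the highest in both genotypes, and the SD was 1.22 in WT and 0.91 in KO liver (n = 4 each).

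Genes of mitosis did not separate the genotypes. *Mki67*, the Ki-67 proliferation marker, had log2 signals of -1.84, -0.84, -1.53 and -1.49 in WT and -1.89, -0.59, -1.25 and -1.55 in KO mice, with a log2 fold change of 0.10 (95% interval -0.58 to 0.79, limma adjusted p = 0.916). *Top2a*, the topoisomerase that untangles chromosomes, had -3.11, -2.04, -2.65 and -2.44 in WT and -2.80, -1.63, -1.92 and -2.76 in KO mice, with a log2 fold change of 0.29 (95% interval -0.45 to 1.02). In both genes replicate 2 was the highest of its genotype. *Birc5* (survivin), which acts in chromosome segregation, had -0.54, 0.67, 0.29 and -0.49 in WT and -0.50, 0.75, 0.09 and -0.30 in KO mice, a log2 fold change of 0.03.

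*Ccnb1*, the cyclin that drives CDK1 into mitosis, had log2 signals of -3.25, -2.65, -3.57 and -3.12 in WT and -2.89, -1.70, -3.29 and -3.14 in KO mice. KO replicate 2 stood above all other mice, and the log2 fold change was 0.39 (95% interval -0.41 to 1.19). *Ccnb2*, its close relative, had -1.74, -0.77, -1.5003 and -0.18 in WT and -1.27, -0.03, -0.51 and -1.10 in KO mice (log2 fold change 0.32), with WT replicate 4 next to KO replicate 2 at the top. *Ccna2*, the A-type cyclin of S phase and G2, lay between -2.90 and -1.76 in WT and between -3.20 and -1.32 in KO mice (log2 fold change 0.23). *Cdc20*, an activator of the anaphase-promoting complex, had log2 signals of -0.62, -0.20, -1.17 and -1.24 in WT and -0.89, 0.51, -0.18 and -1.43 in KO mice, with a log2 fold change of 0.31 (95% interval -0.65 to 1.26). *Ube2c*, the ubiquitin-conjugating enzyme of that complex, had 0.09, *Plk1*, a kinase of mitotic entry, 0.00, and *Aurka*, a kinase of the spindle poles, 0.38, and the limma adjusted p of the 3 lay between 0.575 and 0.998.

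Mitotic genes were highest in the same arrays. In KO replicate 2 the signal was the highest of the 8 arrays for 10 of the 10 mitotic genes tested, where this array was the highest for 6.33% of all genes tested. WT replicate 2 was the highest WT array for 9 of the 10, against 19.7% of all genes. Both arrays lay in column 2 of the slide, so that mouse and slide column cannot be told apart. Relative to the mean of each gene, the 10 genes had a median of 0.83 in KO replicate 2, of 0.44 in WT replicate 2 and of 0.29 in KO replicate 3, and medians of -0.38 to -0.26 in the 5 remaining mice. Without KO replicate 2, the number of mitotic genes with a fitted difference above 0 went from 10 to 4 of 10. Among the 4, *Ccnb1* went from 0.39 to 0.04, *Ccnb2* from 0.32 to 0.09, *Top2a* from 0.29 to 0.07 and *Aurka* from 0.38 to 0.18. With all mice but normexp background correction, *Ccnb1* was at 0.10, *Top2a* at 0.11 and *Ccnb2* at 0.20. For the 11 genes of DNA synthesis, in contrast, KO replicate 3 was the highest of the 8 arrays in 11 of 11, where it was the highest for 19.0% of all genes tested. The median of the 11 was 0.32 in KO replicate 3 and 0.11 in KO replicate 2, 0.00 in KO replicate 4 and -0.01 in KO replicate 1, while WT mice had medians of -0.24 to -0.07. These genes were read from the same 8 livers, so that they are not independent of each other. The promoter letters above were compared for the same 11 genes of DNA synthesis, but for the wider mitotic set of 14 genes, 12 of them with a window. Whether those letters play a part was not tested.

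**Figure D3:**
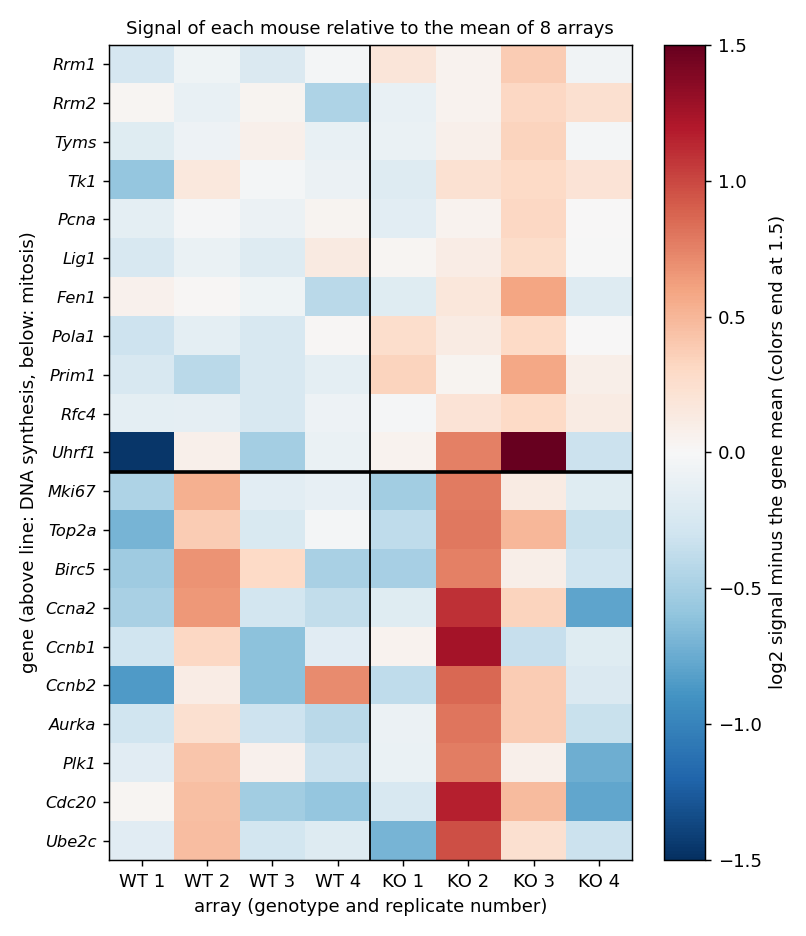
Log2 signal of each mouse minus the mean of the gene over 8 arrays (color, from -1.5 to 1.5) for 11 genes of DNA synthesis (above the line) and 10 of mitosis (below). The mitotic genes are highest in KO replicate 2, and the DNA synthesis genes in KO replicate 3.

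The spread between mice was wide for mitotic genes also when the signal was taken into account. Their SD between mice of 1 genotype had a median of 0.57 (0.41 to 0.69 over the 10 genes), while the 4133 genes in the same range of mean signal had a median of 0.21. Of the 10, 8 exceeded the 90th percentile of genes within the same unit of log2 signal, and of the 11 genes of DNA synthesis 1 did, *Uhrf1*. The median SD of these 11 genes was 0.16, against 0.15 for the 8750 genes in their range of signal.

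**Figure D4:**
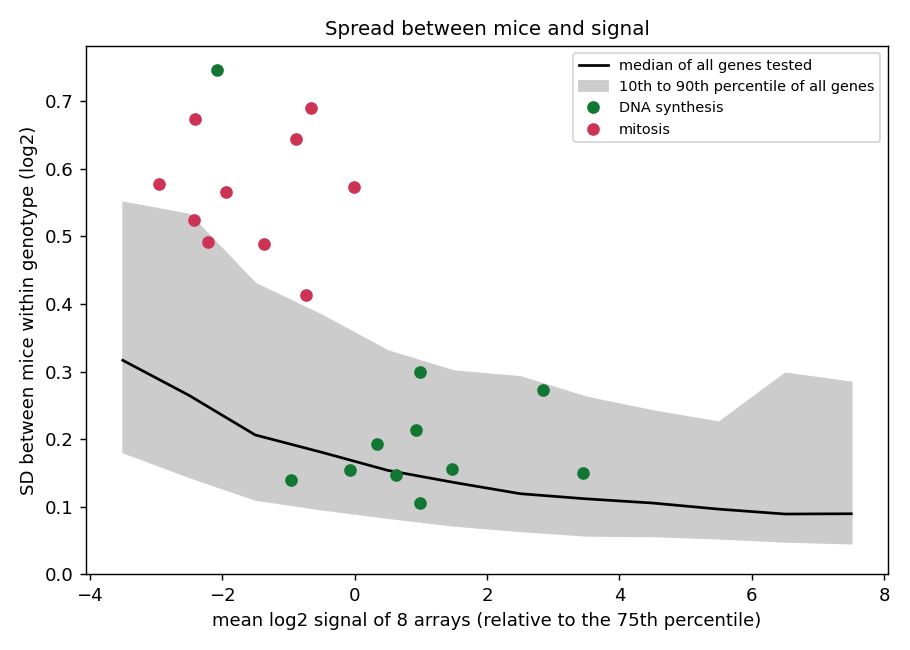
SD between mice of 1 genotype (y axis, log2) against the mean log2 signal of 8 arrays (x axis) for 11 genes of DNA synthesis and 10 of mitosis, with the median and the 10th to 90th percentile of all genes tested in bins of 1 log2 unit. The mitotic genes lie above the median at their signal, 8 of 10 of them above the 90th percentile.

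The other 8 genes were too dim for the test. *Bub1*, a kinase of the spindle checkpoint, and *Kif11*, a motor of the spindle, were not well above background on any array. *Cdk1*, the kinase of mitosis, was above it on 1 WT and 2 KO arrays, with log2 signals of -3.996, -2.84, -4.32 and -3.80 in WT and -3.77, -2.70, -2.67 and -4.18 in KO mice, and the highest values again lay in replicate 2 of both genotypes and in KO replicate 3. *Foxm1* and *Aurkb* were likewise above background on 1 WT and 2 KO arrays, and *Ccne2* and *Bub1b* on 1 WT array only. *Chek1*, the checkpoint kinase of stalled forks, exceeded background clearly on 0 WT arrays and on 1 KO array. Where a second probe passed the filter, 9 of 11 other probes of 9 genes had a difference of the same sign, and the exceptions were both of *Cdk4*.

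Other genes of the same machinery, from lists written from general knowledge, were set beside these. Of 43 further genes of licensing and the fork 40 were tested, of which 3 were called higher and 0 lower by limma (1.01% and 0.754% of all genes), and the median difference was 0.15, against -0.03 over all genes. The 3 were *Mcm2*, *Mcm3* and *Mcm6*, subunits of the replicative helicase, with log2 fold changes of 0.97, 0.85 and 0.89 (limma adjusted p = 0.106, 0.110 and 0.1996, the last just under the threshold). The groups did not overlap for 7 of the 40, all higher in KO liver, against 3.84% of all genes separated upward and 5.89% downward. The separated genes were *Mcm2* to *Mcm6* and, described below, *Chaf1a* and *Dut*. *Mcm4* and *Mcm5* were separated without a call (0.55 and 0.84), and *Mcm7*, added after its value was seen, had 0.13. At an unadjusted p under 0.05, 9 of the 40 were higher and 0 lower (5.7% and 8.26% of all genes), with *Chaf1a* (0.72), which deposits histones behind the fork, *Dut* (0.22), which clears dUTP, and *Rpa1* (0.24), which coats single-stranded DNA, named besides *Mcm2* to *Mcm6*. KO replicate 3 was the highest of the 8 arrays for 25 of the 40 genes, against 19.0% of all genes tested. Of 35 further genes of mitosis 20 were tested, of which 0 were called by limma and 0 passed an unadjusted p under 0.05, with a median of 0.12. KO replicate 2 was the highest array for 8 of the 20, against 6.33% of all genes tested. Of 25 further genes of G1 and S control 23 were tested and 0 were called by limma. At an unadjusted p under 0.05, 2 of the 23 were higher and 1 lower, against 5.7% and 8.26% of all genes. Higher were *Rbl1* (0.79), a relative of the retinoblastoma protein, and *Cdkn2b* (0.64), an inhibitor of CDK4 and CDK6. Lower was *Lin54* (-0.25), the subunit of DREAM that contacts the CHR. The groups did not overlap for 1 higher gene of the 23, *Rbl1*, and for 1 lower gene, against 3.84% and 5.89% of all genes.

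Markers of other cell types were read on the same arrays, relative to the mean of each gene. In KO replicate 2, where mitotic genes were highest, the median was 0.02 for 7 hepatocyte markers, 0.11 for 7 of Kupffer cells, -0.06 for 5 of lymphocytes, -0.06 for 4 of erythroid cells, 0.06 for 6 of endothelial cells, -0.15 for 6 of stellate cells and -0.30 for 3 of cholangiocytes. In KO replicate 3 the medians in the same order were -0.04, 0.21, -0.12, 0.07, 0.04, -0.33 and 0.06. In WT replicate 2, where mitotic genes were highest among the WT mice, the median was 0.87 for stellate cells and 0.51 for cholangiocytes, 0.21 for erythroid cells, 0.14 for Kupffer cells, 0.06 for lymphocytes, 0.04 for hepatocytes and 0.00 for endothelial cells. The part of other cells in the signals of the cell cycle was not tested. Of the Kupffer cell markers 1 of 7 was called, *Marco*, a scavenger receptor, which was lower in KO liver (log2 fold change -1.22, limma adjusted p = 0.0983), where 0.754% of all genes were called lower. The 7 had fitted differences above 0 for 2 and below 0 for 5, with a median of -0.09. In the lists of the other cell types 0 markers were called by limma. At an unadjusted p under 0.05, *Hnf4a* (-0.33, hepatocytes), *Sox9* (-0.64, cholangiocytes), *Alas2* (-0.40, erythroid cells) and *Lyve1* (-0.52, endothelial cells) were lower. *Lrat* (0.50, stellate cells) was higher, and 1 acinar marker was lower. Of all genes tested, 5.7% were higher and 8.26% lower at that p. The stellate markers had fitted differences above 0 for 1 and below 0 for 5, with a median of -0.34. The endothelial markers had them above 0 for 4 and below 0 for 2, with a median of 0.01. All 7 Kupffer cell markers were well above background on all 8 arrays, and their summed signal, with the *Csf1r* probe as the brightest, lay between 62.5 and 90.7 in WT and between 52.1 and 85.2 in KO mice, in units of the 75th percentile. Among the lymphocyte markers, *Cd79a* stayed near background on every array. The summed signal of the hepatocyte markers was 4379 in KO replicate 2 and 4210 in KO replicate 3, inside the range of the WT mice, 4070 to 4644. Of 8 markers of pancreatic acinar cells, *Cpa1*, *Prss2* and *Pnlip* were well above background on 0 arrays and 5 were tested, with 0 called by limma and fitted differences above 0 for 3 and below 0 for 2. Their summed signal, in which the *Cela1* probe was the brightest, lay between 34.0 and 49.2 in WT and between 20.8 and 35.4 in KO mice, lowest in KO replicate 3. *Cela1* was lower in every KO mouse than in any WT mouse (log2 fold change -0.54, limma adjusted p = 0.292).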

How the data were processed

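Liver RNA of 8 mice was read with one-color Agilent arrays. Per array the authors deposited Feature Extraction 10.7.1.1 output, with the processed signal of each spot as a background-corrected intensity on a linear scale. They also deposited a table of log2 values, which equal the log2 of that intensity minus the 75th percentile of the array. The 75th percentile was between 261 and 309 intensity units and the median local background between 27 and 32. Between 29885 and 31886 of 56605 probes were well above background per array. The grid in the file headers names another mouse build than the reference tables, so no gene coordinates are given, and promoter coordinates belong to GRCm38.p6 only.

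Groups follow the genotype given in the titles. Control spots and outlier spots were left out, spots of a probe were averaged, and values were set relative to the 75th percentile. Probes were named through transcript accessions, which matched 1 gene symbol for 32989 of 56605 probes. The 29067 probes that passed the background filter in every mouse of either genotype were fitted in R 4.3.3 with limma 3.58.1 (lmFit, then eBayes, two-sided), and p-values were adjusted over them by Benjamini-Hochberg. Calls took the limits of the study's volcano plot, 1.5-fold and p of 0.2, read here as an adjusted p because the legend leaves that unstated. At these thresholds 273 probes were higher and 211 lower. The fit was tested on simulated data with independent noise and changes larger than any difference fitted for the cell cycle genes. That test therefore does not cover differences of the size seen here. The p-values of limma set the difference between genotypes against the spread between mice of a genotype. They cannot separate genotype from slide row.

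The genes and lists were chosen with earlier results of these data known. Values of all arrays were given for genes called, with an unadjusted p under 0.05 or with separated groups, for the brightest gene of each role, and for *Mki67*, *Top2a*, *Cdk1*, *Ccnd1*, *Ccnb1*, *Pcna* and *Wee1*. All values of *E2f8* were given after they were seen. Of the related lists, at most 8 genes each that were called or had an unadjusted p under 0.05 were named, by p, and *Mcm7* and *Myc* were added after their values were seen. Alternatives were normexp (offset 50) on the median spot signal, normalization by quantiles or by the median, the log2 values as deposited, other filters and thresholds, keeping outlier spots, a trended robust eBayes, a replicate block, leaving out single arrays, and averaging a gene's probes. Figures were drawn with matplotlib 3.10.9.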

Additional observations from a re-analysis of the deposited data

Results flagged for a closer look

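The 4 mice of each genotype were screened for a value far from the rest in 58 genes that the text names, 33 tested genes of the cell cycle and 25 of the related lists, the latter screened after their values were seen. Of 116 such groups 4 held one, where about 1 in 20 does by chance. *Ube2c* stood at -1.47 in WT replicate 2 against -2.21 to -2.11 in the remaining WT livers. *Cdkn2b* stood at -2.50 in WT replicate 2 against -3.18 to -3.12. *Myc*, a factor that promotes entry into the cycle, stood at 0.12 in WT replicate 2 against -2.57 to -2.31, and at -0.13 in KO replicate 3 against -2.39 to -2.38. WT replicate 2 was the highest WT array for 9 of 10 mitotic genes, and KO replicate 3 the highest of all arrays for 11 of 11 genes of DNA synthesis. Whether the *Myc* signal has a part in either pattern was not tested.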

How the results depend on the processing

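The counts of genes at an unadjusted p under 0.05 and of genes fitted above 0 were added as results after seeing the data. None of the 33 genes was called lower under any setting run. Genes called higher were 1 under normexp (*Ccnd1*), 2 with no minimum fold change (*Prim1* and *Rfc4*), 3 at an unadjusted p under 0.2 (*Ccnd1*, *Wee1* and *Uhrf1*), 0 to 1 with an array left out (*Ccnd1* without WT replicate 4, *Prim1* without KO replicate 2), and 0 otherwise. Of all 29067 probes, 180 were called higher under normexp, 557 with no minimum fold change and 534 at an unadjusted p under 0.2. With an array left out, 152 to 334 probes were called higher. Genes higher at an unadjusted p under 0.05 were 5 to 9, the fewest without KO replicate 3. Of all genes tested in the main setting, 5.7% were higher and 8.26% lower at that p. *Cdkn1b*, the 1 gene lower at that p, was at 0 genes under quantile normalization, with the deposited log2 values, without a filter and with outlier spots kept, and the count was 0 to 2 with an array left out, the 2 being *Ccne1* and *Cdkn1b* without KO replicate 3. The median difference of the genes tested lay between 0.10 and 0.29, the lowest without KO replicate 2. The number of mitotic genes fitted above 0 was 4 to 10 with an array left out.

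The sign of the difference changed under at least 1 alternative for 10 of the 33 genes, none of them called. Without KO replicate 2, 6 of 10 mitotic genes turned negative, *Plk1* (-0.25), *Birc5* (-0.22), *Ube2c* (-0.22), *Mki67* (-0.14), *Ccna2* (-0.09) and *Cdc20* (-0.0304, from 0.31). The others were *Cdk2*, *Cdk4*, *E2f2* and *E2f8*. *Birc5* was at -0.0117 and *E2f2* at -0.0288 under median normalization, and *Cdk4* at 0.0107 under quantile normalization and at 0.0114 for the mean of its probes. With an array left out, *Birc5* went up to 0.25, *Mki67* to 0.30 and *Cdc20* to 0.62, *E2f2* lay between -0.25 and 0.24, *E2f8* between -0.39 and 0.55, *Cdk2* between -0.00825 and 0.20, and *Cdk4* between -0.0501 and 0.0356. The cause was not tested.

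Over all probes, those called higher and lower were 180 and 65 under normexp, 122 and 131 without a filter, 208 and 125 with probes above background on all 8 arrays, 82 and 35 at an adjusted p under 0.05, 557 and 645 with no minimum fold change, and 534 and 451 at an unadjusted p under 0.2, and 152 to 334 and 105 to 311 with an array left out. The lowest of both came without WT replicate 3. The replicate numbers, which are also the columns of the slide, were not taken to pair the mice. Deviations of same-numbered arrays correlated at 0.33, -0.11, 0.10 and 0.32, and those of differently numbered WT and KO arrays at -0.27 to 0.27. The values of replicates 1 and 4, 0.33 and 0.32, were the highest of all pairs of a WT and a KO array. Whether the slide column shifted the signals of both genotypes was not tested. With a replicate block in limma, 327 probes were called higher and 265 lower, and 0 of the 33 genes were called. At an unadjusted p under 0.05, limma with that block had 9 of the 33 genes higher. *Tk1*, *Uhrf1* and *Aurka* joined these genes and *Rrm1* dropped out. Dim probes limit the 8 genes that were not tested.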

Other observations

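Immediate early genes, which respond within minutes to growth factors and stress and precede entry into the cycle, were read beside the cell cycle genes. Of 12 tested, 0 were called by limma, 10 had a fitted difference below 0 (58.0% of all genes tested did), with a median of -0.30 against -0.03 over all genes tested, and 1 was lower at an unadjusted p under 0.05, as were 8.26% of all genes. This was *Dusp1*, a phosphatase of MAP kinases (log2 fold change -0.76, limma adjusted p = 0.332). *Myc*, which is in that list, had a difference of -0.05 (SE 0.72), with 1 high mouse in each genotype.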
